A study of Mus musculus with 12 samples.

Results

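Spleen T cells of NOD mice that had received bone marrow from B6 mice (B6toNOD) were set against spleen T cells of B6 mice on cDNA arrays with 2 colour channels. The arrays were taken by their titles, and they are 2 of the 12 arrays of the series. Channel 1 held RNA of the recipients' T cells and channel 2 RNA of B6 T cells, per the labels. Of the 8708 genes named on the array, 7752 had a value on both B6toNOD arrays, and these are described here. NOD is an inbred strain that develops autoimmune diabetes spontaneously, and B6 (C57BL/6) is the control strain. The reciprocal transfer (NODtoB6, 2 arrays), in which B6 mice received NOD marrow before their spleen T cells were taken, and spleen T cells of NOD mice (NOD, 2 arrays) were used where a difference from B6toNOD was tested. Both were also measured against B6 spleen T cells. The remaining 6 arrays, of NOD.H2h4 spleen T cells, B6.NODIdd1,5 spleen T cells and B6.NODIdd1,5 kidney cells, entered only the shared estimate of the spread. For age, sex, conditioning of the recipients, time after transfer and the isolation of T cells, the answer was not given in the sources used here. The share of T cells that came from the donor was not measured, so T cells of the host may be among them. Nothing in the labels says that the arrays of a group hold different animals, and p-values then measure only the spread between these arrays.

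In a marrow transfer, stem cells of the donor rebuild the blood cell lineages of the recipient, and new T cells mature from donor precursors in the recipient's thymus. In B6toNOD both the donor marrow and the control RNA are of the B6 strain, while the surroundings in which the cells developed are those of NOD. Marrow also gives rise to neutrophils and monocytes, which fill the spleen beside the lymphocytes. Neutrophils carry antimicrobial proteins in granules and large amounts of S100 proteins in the cytosol. In bulk RNA, more cells of a type and more RNA per cell cannot be told apart.

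All values are log2 ratios of recipient to B6 RNA, and each array was centred on its own median, so higher and lower are relative to the middle of the array. The direction was taken as channel 1 over channel 2. The labels name no dyes for these arrays, so that direction is an assumption. The deposited medians were -0.62 and -0.85, and centring therefore moved the values of a gene by 0.73 on average. Relative to B6, 3930 of the 14296 features tested were higher (27.5%) and 3420 lower (23.9%) at an adjusted p under 0.05, or 51.4% in either direction. Among the 7752 named genes the counts were 1974 higher (25.5%) and 1752 lower (22.6%), or 48.1% in either direction. As deposited, with no centring, 896 features were higher and 8531 lower, so the direction of genes with values of moderate size rests on the centring.

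The B6toNOD arrays had a wider spread and more missing values than those of the other groups. The median absolute deviation was 0.95 and 0.92, against 0.30 to 0.72 on the other 10 arrays, and 8.87% and 9.16% of probes had no value, against 0.75% to 8.0%. Between the 2 arrays the Pearson correlation was 0.55 and the Spearman correlation 0.66 over 14296 features, which share the arrays and are not independent. The gap between the arrays differed by direction. The median gap between the arrays was 0.12 for the 1221 features with a mean between 1 and 2, 1.06 for the 1749 features between -2 and -1, and 2.63 for the 109 features at -3 or less. For the highest means, above 3, it was 0.53 over 33 features, and 24.2% of these had a gap over 1. Values between 0 and 3 were thus repeated more closely than the highest and the strongly negative ones. The spread used in the test is shared with arrays that vary less. With only the 4 marrow transfer arrays in the fit, 2259 features were higher and 1216 lower. With only the 2 B6toNOD arrays none passed in limma, and 4883 had an unadjusted p under 0.05.

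**Figure D1:**
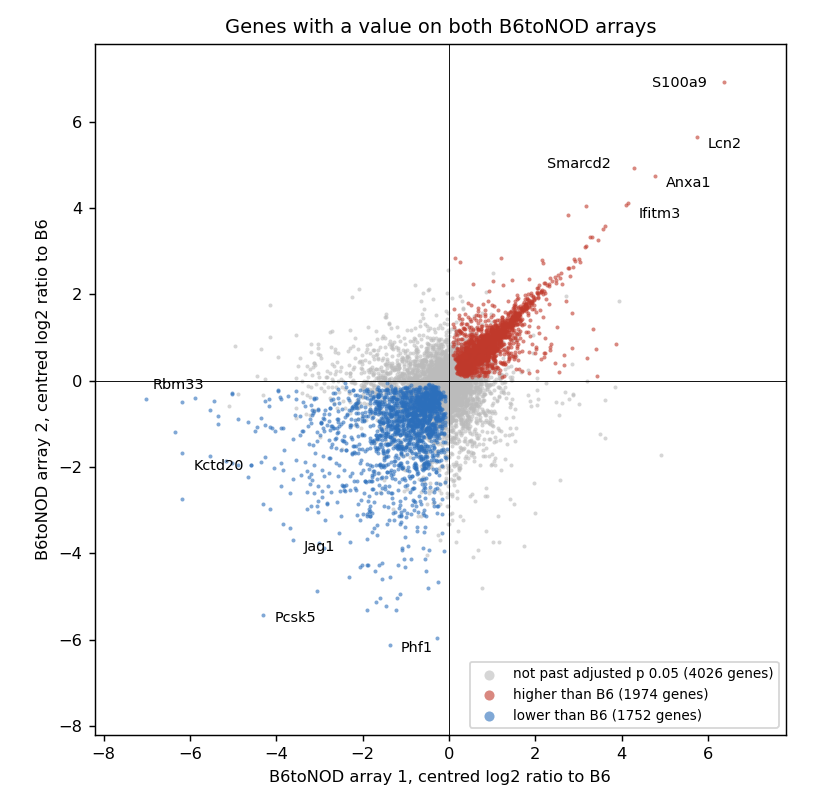
Centred log2 ratio to B6 of each of the 7752 genes on B6toNOD array 1 (horizontal axis) and array 2 (vertical axis), coloured by the call against B6 at an adjusted p under 0.05. The 1974 higher genes lie close to the diagonal up to S100a9, whereas the 1752 lower genes fan out, with Rbm33 at -7.02 on array 1 and -0.43 on array 2.

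**Figure D2:**
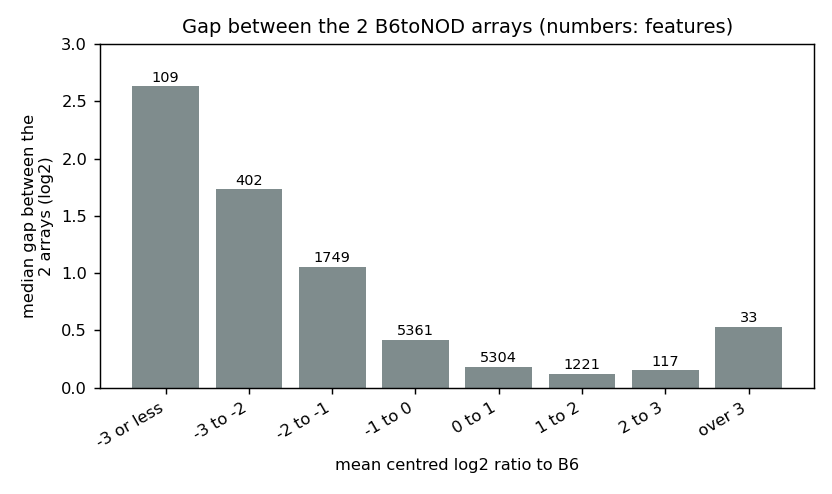
Median absolute gap between the 2 B6toNOD arrays (log2) for features binned by their mean centred log2 ratio to B6, with the number of features above each bar. The gap is 2.63 for means of -3 or less and 0.12 for means between 1 and 2.

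The highest values of the experiment belonged to genes of neutrophils and other myeloid cells. Of 33 genes on a list of myeloid markers, 12 were on the array and 10 had values on both arrays. Of these 10, 7 were higher than B6 (70%, against 25.5% of all named genes), 1 was lower and 2 did not pass. Their median was 1.88, against -0.07 for all named genes, and it remained positive as deposited (1.14). All 4 tested members of the shorter set of 14 neutrophil and macrophage markers, S100a9, Lcn2, Ltf and Lyz2, were higher, with array values from 2.40 to 6.93. S100a9, Lcn2 and Lyz2 rest on 1 probe each and Ltf on 3. S100a8, the partner of S100a9, is not among the genes named on the array.

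S100a9 encodes a subunit of calprotectin, the calcium- and zinc-binding protein that makes up much of the neutrophil cytosol. Its log2 ratio to B6 was 6.37 on array 1 and 6.93 on array 2, a mean of 6.65 ± 0.12 (SE of the fit, n = 2 arrays here and below) or 100-fold (adjusted p = 6.2e-07). No other gene of the array was as high. Lcn2 encodes lipocalin 2, which binds the iron carriers of bacteria and is stored in neutrophil granules. It read 5.75 and 5.65, a mean of 5.70 ± 0.25 (adjusted p = 5.5e-06). The arrays lay closer together in Lcn2 than in S100a9, and each array alone placed S100a9 first and Lcn2 second.

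Alox5ap encodes the protein that presents arachidonic acid to 5-lipoxygenase at the start of leukotriene synthesis, and it read 3.60 and 3.58 (mean 3.59 ± 0.07). Lyz2, the lysozyme of macrophages and granulocytes, read 3.58 and 3.51 (mean 3.54 ± 0.09). Ltf, which encodes the iron-binding granule protein lactoferrin, read 2.46 and 2.40 (mean 2.43 ± 0.07), and its 3 probes had means of 1.67 to 3.11. All of these passed the test, and within each gene the 2 arrays lay within 0.1 of each other. The Fc receptor gene Fcgr3 read 1.64 and 1.0 (mean 1.32 ± 0.14, adjusted p = 0.00018). C1qb, a complement subunit made by macrophages, was higher by 0.41 ± 0.10, which turned to -0.33 as deposited.

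The list was not uniform. Csf3r, the receptor for the growth factor that drives neutrophil production, was lower, with -0.28 and -0.34 (mean -0.31 ± 0.07, adjusted p = 0.0064). Mmp9 (0.63 and 1.23) and Fcer1g (-0.11 and 0.92) did not pass. C1qa and C1qc had a value on 1 array each, -1.26 and -0.47. Fcgr3, C1qb, Mmp9 and Fcer1g are given beyond the rule for named genes so that all 10 are accounted for.

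Other genes near the top are also known from granulocytes and monocytes. Anxa1, a calcium-dependent membrane-binding protein abundant in neutrophils, read 4.78 and 4.74 (mean 4.76 ± 0.18, adjusted p = 3.5e-06). S100a6, another S100 protein, read 3.44 and 3.27 (mean 3.36 ± 0.08). A further 4 genes with high values were picked after their values had been seen and lie outside the rule for named genes. These were Cd177, a surface protein of neutrophils (3.0 and 2.81), Serpinb1a, an inhibitor of neutrophil proteases (2.88 and 2.64), Pygl, a glycogen phosphorylase (3.04 and 2.76), and Ltc4s, the synthase of leukotriene C4 (2.89 and 2.83). Each was higher than B6 with an adjusted p between 2.7e-06 and 7.1e-05. Their part, and that of the myeloid markers, in the other differences described here was not tested.

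The windows upstream of the 5 highest myeloid list genes were looked up in RefSeq (GRCm38.p6), since these genes were high together. Of the 5, 4 had an entry, and the 250 bases before the annotated start are printed 5′ to 3′ on the strand of the gene. Capitals mark matches to TTGCNNAA, a form of the site of C/EBP factors, and to GAGGAA, a core of PU.1 and related Ets factors, on either strand. Both factor families are known as regulators of granulocyte and macrophage genes. Alox5ap is named only.
S100a9, chr3:90695722-90695971, minus strand: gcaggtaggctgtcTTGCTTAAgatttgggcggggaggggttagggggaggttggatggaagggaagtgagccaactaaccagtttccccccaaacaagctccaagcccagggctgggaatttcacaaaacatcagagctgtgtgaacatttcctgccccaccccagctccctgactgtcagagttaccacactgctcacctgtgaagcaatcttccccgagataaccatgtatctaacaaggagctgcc
Lcn2, chr2:32387740-32387989, minus strand: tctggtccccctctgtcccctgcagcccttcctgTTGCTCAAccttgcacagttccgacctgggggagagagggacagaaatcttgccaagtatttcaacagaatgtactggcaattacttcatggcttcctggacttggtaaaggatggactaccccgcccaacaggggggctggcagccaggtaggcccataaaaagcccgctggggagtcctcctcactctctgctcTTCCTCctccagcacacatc
Lyz2, chr10:117282273-117282522, minus strand: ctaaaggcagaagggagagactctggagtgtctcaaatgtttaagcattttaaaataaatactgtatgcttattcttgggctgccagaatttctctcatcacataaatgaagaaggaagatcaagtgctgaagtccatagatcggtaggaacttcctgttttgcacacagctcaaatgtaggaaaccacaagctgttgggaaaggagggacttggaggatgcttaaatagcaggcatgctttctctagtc
Ltf, chr9:111019042-111019291, plus strand: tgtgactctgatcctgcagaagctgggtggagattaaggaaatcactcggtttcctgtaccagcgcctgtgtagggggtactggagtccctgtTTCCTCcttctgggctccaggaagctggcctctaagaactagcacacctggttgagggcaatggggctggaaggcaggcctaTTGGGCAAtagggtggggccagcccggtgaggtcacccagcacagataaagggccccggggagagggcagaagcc
The C/EBP-type letters occurred once in S100a9, once in Lcn2 and once in Ltf, and PU.1-type letters occurred once in Lcn2 and once in Ltf. Lyz2 had no match to either. Of 32851 windows of the same length in the table, 9.56% held TTGCNNAA and 23.3% held GAGGAA on either strand. A match describes the letters and is not a binding site.

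Beyond the granulocyte genes, the leading genes had diverse roles, and most rest on 1 probe. Smarcd2, a subunit of SWI/SNF chromatin remodelling complexes that is needed for neutrophil maturation, read 4.28 and 4.93 (mean 4.61 ± 0.15, adjusted p = 2.4e-06). Hmgn2, a nucleosome-binding protein, read 4.09 and 4.06 (mean 4.08 ± 0.08). Its relative Hmgn1, picked after its values had been seen, was lower, with -1.59 and -1.25 (mean -1.42 ± 0.43). Tmed9, a protein of transport vesicles, read 3.31 and 3.34 (mean 3.32 ± 0.32). Fezf2, a zinc finger factor that in the thymus drives expression of tissue antigens, read 2.76 and 3.85 (mean 3.30 ± 0.32). Sprr2a1, a protein of the epithelial cell envelope, read 3.17 and 4.04, but with a large error of the fit (mean 3.61 ± 0.95, adjusted p = 0.019). Sprr2a1 and Hmgn1 did not pass when either array was left out (adjusted p from 0.068 to 0.16).

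Where a gene had several probes, their values could be set side by side. Of 2388 genes with 2 or more probes valued on both arrays, 564 were higher than B6, and in 434 of these every probe was above 0. Over all 2388 genes, called or not, every probe lay on the same side of 0 in 1187. A call rests on the mean of the same probes. The genes named next were chosen for having every probe above 0, so this is no separate support. Actb, the gene of cytoplasmic beta-actin, had 8 probes with means of 1.56 to 2.89 and read 2.40 and 2.31 (mean 2.35 ± 0.07). H2az1, a histone variant, had 4 probes between 2.28 and 3.05 and read 2.76 and 2.62 (mean 2.69 ± 0.11). Ppia, the cyclophilin A gene, had 5 probes between 1.39 and 2.48 and read 2.04 on both arrays. Itm2b, a membrane protein (mean 2.61 ± 0.09), Tubb4b, a beta-tubulin (2.11 ± 0.07), Arpc2, a subunit of the actin-nucleating Arp2/3 complex (1.99 ± 0.09), and Tgfbi, a matrix protein (1.87 ± 0.09), were likewise above 0 on every probe. Probes of closely related genes, such as actins, tubulins and histones, can bind each other's RNA, so these values may hold several family members.

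**Figure D3:**
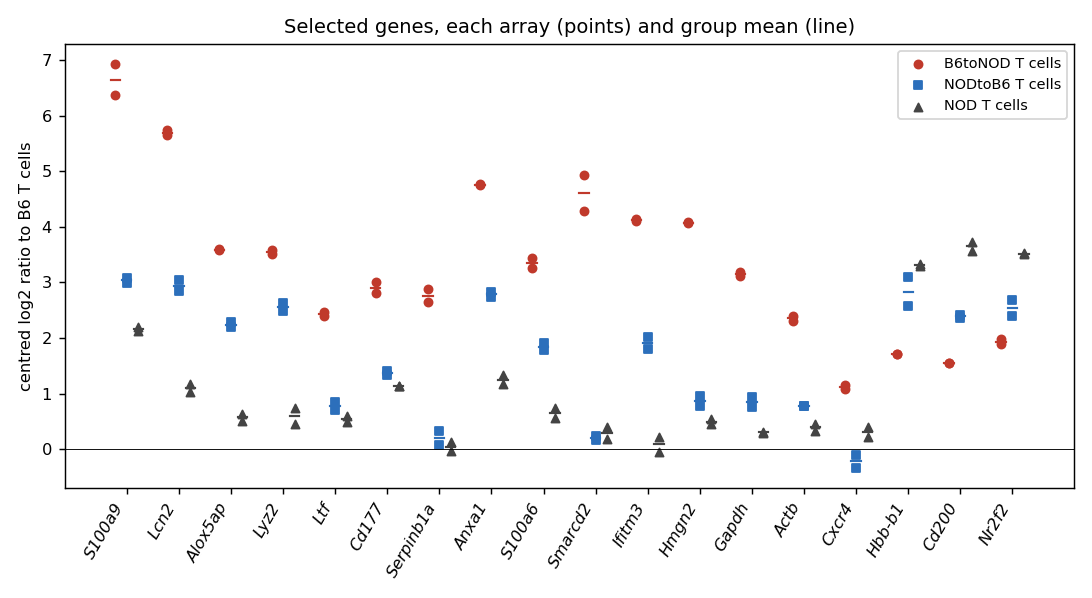
Centred log2 ratio to B6 T cells (vertical axis) of 18 selected genes on each array of B6toNOD, NODtoB6 and NOD T cells, with the group mean as a line. As centred, B6toNOD is highest for the genes from S100a9 to Cxcr4, and lowest of the 3 for Hbb-b1, Cd200 and Nr2f2. The genes from S100a9 to Cxcr4 were named for high values in B6toNOD, whose arrays had the widest spread. With all arrays scaled to the same spread, Lyz2 (-0.61), Alox5ap (-0.22) and Anxa1 (-0.10) were below NODtoB6, and S100a9 did not differ from either group at an adjusted p under 0.05.

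The T cell label could be checked only in part. Of 13 defining T cell markers only Cd4 and Cd247 are named on the array, and neither had a value on both B6toNOD arrays. Cd4 had no value on either, although it had one on 8 of the other 10 arrays, and Cd247, the CD3 zeta chain, read -1.68 on array 2 alone. Ccr7, the homing receptor of naive T cells, also had no value on either B6toNOD array and a value on all 10 others. In all, 956 of the 8708 named genes (11%) lacked a value on at least 1 B6toNOD array, and 164 lacked both.

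On the wider list of T cell identity and receptor signalling, 9 of 34 genes were tested. Of these, 1 was higher and 3 were lower, against 25.5% higher and 22.6% lower among all named genes. The median was -0.54. As deposited none was higher and 7 were lower, with a median of -1.27. Lcp2, the adaptor SLP-76, was higher with 0.74 on both arrays, which is 0.007 on average as deposited. The transcription factor Gata3 was lower (-1.43 and -0.96, mean -1.19 ± 0.18, adjusted p = 0.0013). Ets1, another factor of T cell development, was lower as well (-0.53 and -1.74), as was the receptor-proximal kinase Fyn (-0.62 and -0.45). Lcp2 did not pass without array 1 (adjusted p = 0.064) or without array 2 (adjusted p = 0.063), and neither did Fyn (adjusted p = 0.15 and 0.058). The costimulatory receptor Cd28 read 0.09 and 0.24 and did not pass. Icos, its relative, read 2.87 and -0.30, so the arrays did not agree. In the activation and regulatory T cell list, 3 of 32 genes were tested. Only Cish, a feedback inhibitor of cytokine signalling, passed, and it was lower (-1.22 and -0.46).

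Of 12 tested genes of T cell homing and memory, 5 were higher and 1 lower, against 25.5% higher and 22.6% lower among all named genes. As deposited none was higher and 6 were lower. Il7r, the receptor for the survival cytokine interleukin 7, read 2.36 and 0.85 (mean 1.60 ± 0.29, adjusted p = 0.0029). Cxcr4, the receptor for CXCL12 that guides cells to marrow, read 1.16 and 1.09 (mean 1.12 ± 0.13, adjusted p = 0.00031). Itgb1, the beta-1 integrin, read 0.67 and 1.2 (mean 0.93 ± 0.12), but taken as the median over its probes it was -0.05. The memory marker Cd44 (0.72 ± 0.07) and Klf2, a factor of naive T cell circulation (0.61 ± 0.07), also passed but lay at -0.01 and -0.12 as deposited, and the 2 probes of Cd44 had means of -0.29 and 1.73. Foxp1 was lower (-0.53 ± 0.08). Cxcr4 and Itgb1 are also made by granulocytes.

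Among genes of thymic development 3 of 9 tested were higher (33.3%, against 25.5% of all named genes) and 2 lower. As deposited 2 were higher and 5 lower. Dtx1, a target and modulator of Notch, read 1.41 and 1.42 (mean 1.41 ± 0.08), and Cd24a read 1.60 and 1.2 (mean 1.40 ± 0.10). Both arrays were well above B6 in either gene. Ikzf1, the lymphoid factor Ikaros, was lower (-0.62 and -2.29). Cytokines and cytokine receptors as a list showed 9 of 28 higher and 4 lower, close to the share of all named genes, with 2 higher and 15 lower as deposited. Il7 itself was higher with 1.35 and 1.27 (mean 1.31 ± 0.06, adjusted p = 7.9e-06). Tnfsf8, the CD30 ligand, read 1.05 and 1.04, and Il1rl2 read 1.04 and 1.19. The shared receptor chain Il6st was lower (-1.71 and -0.47), with -1.71 and -1.03 on its only probe valued on both arrays.

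Markers of other blood cells gave mixed counts, to be read against 25.5% higher and 22.6% lower among all named genes. Of 8 tested B cell markers 2 were higher and 1 lower, with a median of -0.62 and, as deposited, 1 higher and 5 lower. The kinase gene Btk, which myeloid cells share, read 1.40 and 1.29, and Jchain, the joining chain of secreted antibodies, read 1.43 and 0.64. Cd79b, the signalling chain of the B cell receptor, was lower (-0.75 and -3.39), and Ighm, the heavy chain of IgM, read -0.20 and -0.31 and did not pass. Of 5 tested NK and cytotoxic genes 3 were lower and 1 was higher, with 4 lower and none higher as deposited. The NK receptor gene Ncr1 was lower (-0.47 and -0.89), while Eomes, a factor of cytotoxic cells, was higher (0.89 and 0.84). The platelet chemokine gene Ppbp was lower (-1.16 and -2.35).

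Red cell genes were mixed. Of 18 tested, 7 were higher (38.9%, against 25.5% of all named genes) and 5 lower. The median was -0.11, with 1 higher and 9 lower as deposited. Hbb-b1, adult beta-globin, read 1.71 on both arrays (mean 1.71 ± 0.13, adjusted p = 3.7e-05). The embryonic globins Hbb-y (0.85 and 0.51), Hba-x (0.92 and 0.64) and Hbb-bh1 (0.45 and 0.52) were above B6 as well, although Hbb-y (-0.06) and Hbb-bh1 (-0.25) were below 0 as deposited, and their probes may bind adult globin RNA. Gata1, the transcription factor of the red cell lineage, was lower (-1.32 and -1.02, mean -1.17 ± 0.11), as were Urod (-0.50 and -1.93) and Blvrb (-2.11 and -0.74) of haem metabolism. Among stromal and endothelial genes 4 of 12 were higher (33.3%, against 25.5% of all named genes) and 2 lower. As deposited 1 was higher and 8 were lower. Vim, the intermediate filament protein of leukocytes and mesenchymal cells, led with 2.33 and 2.25, and Pecam1, which leukocytes also carry, read 0.99 and 0.72. The collagen gene Col1a2 (-0.78 and -1.33) and the matrix gene Bgn (-1.49 and -1.35) were lower.

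Lists of basic cell functions follow, to be read against 25.5% higher and 22.6% lower among all named genes. Of 73 cytosolic ribosomal protein genes tested, 56 were higher (76.7%, against 25.5% of all named genes) and 5 lower, whereas as deposited 7 were higher and 23 lower. Their median was 0.63 centred and -0.10 as deposited, against -0.06 and -0.80 for all features. Centring moves all values of an array alike, so the distance of the list from the middle stays the same by construction. The highest were Rps12 (1.38 and 1.32), Rps3 (1.40 and 1.24, with 3 probe means from -0.01 to 2.22) and Rpl15 (1.23 and 1.36, 4 probes). Rps7 was lower on both arrays (-0.88 and -0.91), with Rpl19 (-0.41 and -0.40) and Rps27 (-0.41 and -0.37). Mitochondrial ribosomal protein genes had 15 of 46 higher (32.6%, against 25.5% of all named genes) and 8 lower. Their median was -0.02 (1 higher and 26 lower as deposited).

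Of 66 nuclear genes of oxidative phosphorylation, the respiratory chain and ATP synthase, 39 were higher and 4 lower (median 0.58). That is 59.1% higher, against 25.5% of all named genes. As deposited 14 were higher and 22 lower. Cox7a2, a subunit of cytochrome oxidase, read 2.24 and 1.89 (mean 2.07 ± 0.14). Ndufs3 of complex I read 2.05 and 1.91 (mean 1.98 ± 0.07), and Atp5j of ATP synthase read 1.92 and 1.84 (mean 1.88 ± 0.10). The assembly factor gene Ndufaf1 lay at the other end (-2.54 and -3.53, mean -3.04 ± 0.31). Structural subunits led the list, and 2 of its 4 lower genes, Ndufaf1 and Ndufaf3, encode assembly factors. Atp5g1, a subunit of ATP synthase, was also lower (-1.47 and -0.84), with probe means of -2.50 and 0.19.

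Glycolysis and the citric acid cycle held 18 higher genes of 38 (47.4%, against 25.5% of all named genes) and 2 lower. Their median was 0.45, with 7 higher and 11 lower as deposited. The leading members encode glycolytic enzymes. Gapdh read 3.18 and 3.12 (mean 3.15 ± 0.07, adjusted p = 9.6e-07), Pgk1 read 2.78 and 2.62 (mean 2.70 ± 0.16), and Pkm read 2.48 and 2.34 (mean 2.41 ± 0.07). Each catalyses a step in the lower part of glycolysis. Pgam1 (1.69 ± 0.10), Tpi1 (1.69 ± 0.09), Ldha (1.68 ± 0.11) and the glucose transporter gene Slc2a3 (1.46 ± 0.11) followed. The lower genes were Aco1 (-1.57 and -1.99), which also regulates iron metabolism, and Pfkm (-1.47 and -0.38, or -1.47 and -0.60 on its only probe valued on both arrays).

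Proteasome genes had 20 of 42 higher (47.6%, against 25.5% of all named genes) and 4 lower. Their median was 0.60, with 3 higher and 14 lower as deposited. Psmb1, a subunit of the catalytic core, read 1.35 and 1.45, and Psme1, an interferon-induced activator subunit, read 1.48 and 1.14. Psmd8 of the regulatory particle was lower (-0.72 and -1.16), but its 2 probes had means of -2.66 and 0.78. Splicing factors and hnRNPs had 32 of 63 higher (50.8%) and 7 lower (median 0.41), with 9 higher and 27 lower as deposited. Srsf1 read 1.85 and 1.87, and Hnrnpab read 1.76 on both arrays. Of 45 chaperone genes 20 were higher (44.4%) and 3 lower (median 0.28), with 6 higher and 24 lower as deposited. Hspa8, the constitutive HSP70, had 4 probes between 1.36 and 2.39 and read 2.0 and 1.92, while the stress-related Hspb8 (-1.09 and -1.15) and Bag3 (-0.69 and -1.76) were lower. The value of Hspb8 came from 1 of its 2 probes, which had means of -2.30 and 0.07.

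Translation factors held 22 higher genes of 50 (44%, against 25.5% of all named genes) and 8 lower. Their median was 0.33, with 4 higher and 25 lower as deposited. Eif3c read 2.48 and 2.26 and Eif4a1, a helicase of initiation, read 1.61 and 1.54. Eif4ebp2, a repressor of initiation, was lower (-1.66 and -1.34). Lysosomal genes held 18 higher (43.9%) and 4 lower of 41 (median 0.37), with 7 higher and 18 lower as deposited. Atp6v0b of the proton pump read 2.84 and 1.57, Psap, the precursor of lipid-degrading cofactors, read 1.90 and 1.99, and Cd63, a membrane protein of lysosomes and granules, read 1.92 and 1.65. The protease gene Tpp1 was lower (-1.19 and -2.04).

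Genes of DNA replication and mitosis were above B6 in 32 of 73 cases (43.8%, against 25.5% of all named genes) and below in 8. Their median was 0.32, with 10 higher and 29 lower as deposited. Stmn1, a regulator of microtubules in dividing cells, read 2.21 and 2.04 (mean 2.13 ± 0.09, adjusted p = 5.2e-06). Cks2, a partner of the cyclin-dependent kinases, read 1.92 and 1.85 (mean 1.89 ± 0.08). Hmgb2, a chromatin protein, read 2.08 and 2.22, with a larger error (2.15 ± 0.54, adjusted p = 0.017). At the low end were Orc6 of the origin recognition complex (-1.02 and -2.30), Dut, which clears dUTP (-0.58 and -2.27), and the replicative helicase gene Mcm7 (-2.21 and -0.63), so the list did not move as one.

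With only the 4 marrow transfer arrays in the fit, the medians of these lists stayed as given and the counts of higher genes fell. Ribosomal genes then had 39 higher, oxidative phosphorylation 29, proteasome 15 and splicing 22. The drop was over 1.5 times for glycolysis (11), chaperones (12), translation factors (8), lysosomal genes (9), DNA replication (18) and mitochondrial ribosomal proteins (5). Among lists given elsewhere, the count of higher genes fell as much for erythroid markers (3), stromal and endothelial markers (2), MHC and antigen presentation (2), other genes of the MHC region (5), Idd5 (5), immediate-early genes (6), apoptosis regulators (3) and cytokines (5).

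**Figure D4:**
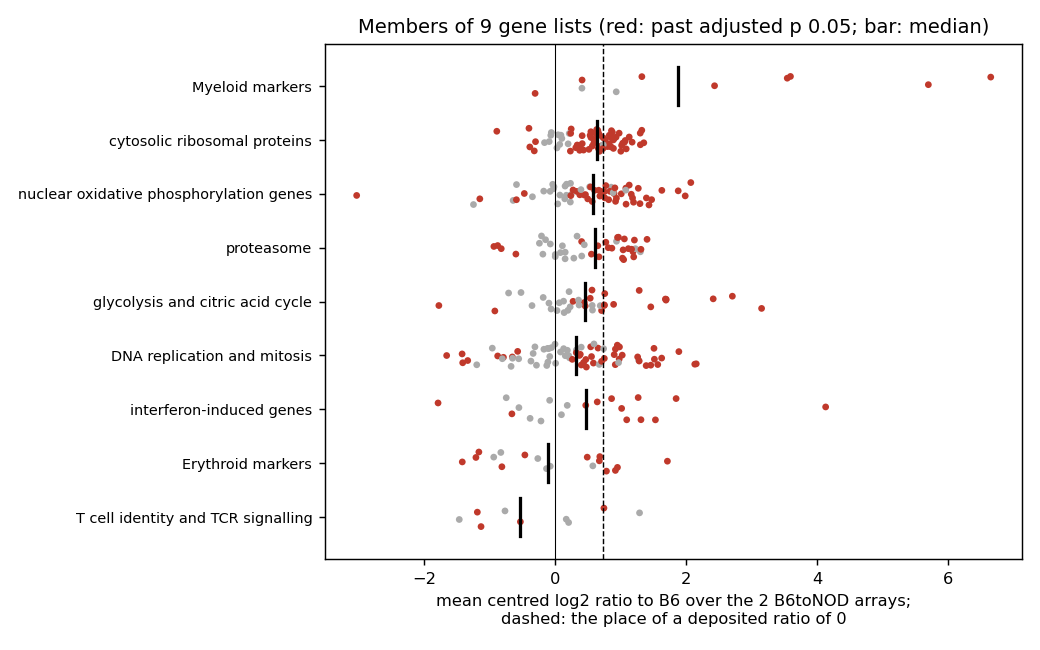
Mean centred log2 ratio to B6 over the 2 B6toNOD arrays (horizontal axis) of each tested member of 9 gene lists, red where past an adjusted p of 0.05, with the list median as a bar. The dashed line at 0.73 is where a deposited ratio of 0 falls, so members between 0 and that line are higher when centred and lower as deposited. The myeloid median of 1.88 lies beyond it and the ribosomal median of 0.63 does not.

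Interferon-induced genes were higher in 10 of 19 cases (52.6%, against 25.5% of all named genes) and lower in 2. Their median was 0.46, with 5 higher and 7 lower as deposited. Ifitm3, a membrane protein that restricts virus entry, read 4.14 and 4.11 (mean 4.13 ± 0.10, adjusted p = 9.6e-07). Oas1a, an RNA-sensing enzyme, read 1.88 and 1.81 (mean 1.84 ± 0.09), and Ly6e, a lymphocyte surface protein, read 1.61 and 1.44 (mean 1.53 ± 0.11). All 3 repeated closely between the arrays. Ifitm1, a close relative of Ifitm3, was lower (-0.81 and -2.78), and Ifi35 was lower too (-0.59 and -0.74). Members of the list thus differed in direction, and probes of this family can bind each other's RNA.

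The major histocompatibility complex (MHC) differs between the strains and lies in the diabetes interval Idd1. Of 8 tested genes of MHC and antigen presentation 4 were higher (50%, against 25.5% of all named genes) and 1 was lower. As deposited 1 was higher and 2 were lower. B2m, the light chain of class I molecules, read 1.79 on both arrays (mean 1.79 ± 0.16, adjusted p = 7.4e-05), and Tap2, a subunit of the peptide transporter, read 0.80 and 0.76. The class II gene H2-Eb1 read 1.11 and 0.31 (-0.02 on average as deposited), and H2-Aa had a value on array 1 alone (-3.95). H2-DMa, which loads class II molecules, was lower (-0.68 and -0.58). Of 25 other genes of the region 10 were higher (40%) and 2 lower, with 3 higher and 14 lower as deposited. Clic1, a chloride channel protein, read 1.97 and 1.76, Agpat1, an enzyme of phospholipid synthesis, read 1.55 and 1.41, and Tubb5, a beta-tubulin, read 1.34 and 1.21.

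In the interval Idd5 11 of 33 genes were higher and 4 lower (median 0.12), a share near that of all named genes, with 1 higher and 18 lower as deposited. Arpc2, given above, led the list, followed by Bcs1l (0.94 and 0.98) and Ctdsp1 (0.96 and 0.90), while the deubiquitinase gene Usp37 was lower (-0.62 and -1.61).

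Immediate-early genes, which respond within minutes to stimulation of cells, were higher in 10 of 26 cases and lower in 3. That is 38.5% higher, against 25.5% of all named genes. As deposited 2 were higher and 11 lower. The phosphatase gene Dusp1 read 1.27 and 1.18 (mean 1.22 ± 0.07) and Fos read 1.10 and 1.16 (mean 1.13 ± 0.07). Nfkbia, the inhibitor of NF-kappaB, read 0.19 and 0.16 and did not pass, while its relative Nfkbib was lower (-1.67 and -1.56). Of 16 targets of p53 and DNA damage genes 3 were higher (18.75%) and 3 lower, against 25.5% and 22.6% of all named genes. As deposited 1 was higher and 11 were lower. Perp (1.81 and 1.91) and the cell cycle inhibitor Cdkn1a (1.04 and 1.38) were higher, and Sesn1 was lower (-1.78 and -2.19), although its only probe with a value on both arrays read -1.78 and -4.87. Of 25 apoptosis regulators 8 were higher (32%, against 25.5% of all named genes) and 4 lower. As deposited 1 was higher and 16 were lower. Cycs, cytochrome c, read 1.33 and 1.25, and Dapk1, a kinase that promotes cell death, read -1.38 and -3.24.

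Of 6 tested genes on the sex chromosomes 2 were higher (33.3%, against 25.5% of all named genes) and 2 lower. The Y-linked Eif2s3y (1.45 and 1.18) and the X-linked Ddx3x (0.42 and 0.36) were higher than B6. As deposited Ddx3x was -0.34 on average. Eif2s3x, the X-linked partner of Eif2s3y (-0.66 and -1.39), and Kdm6a (-1.34 and -1.05) were lower. Xist, expressed from the inactive X chromosome, read 0.21 and 0.14 and did not pass. Of 4 tested adenosine enzymes Ada was higher (0.73 and 0.64, but -0.05 on average as deposited) and Entpd1, the ectoenzyme CD39, was lower (-0.77 and -2.04). Of 8 tested chemokine genes 2 were higher (25%, against 25.5% of all named genes) and 1 was lower. As deposited 4 were lower and none was higher.

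**Figure D5:**
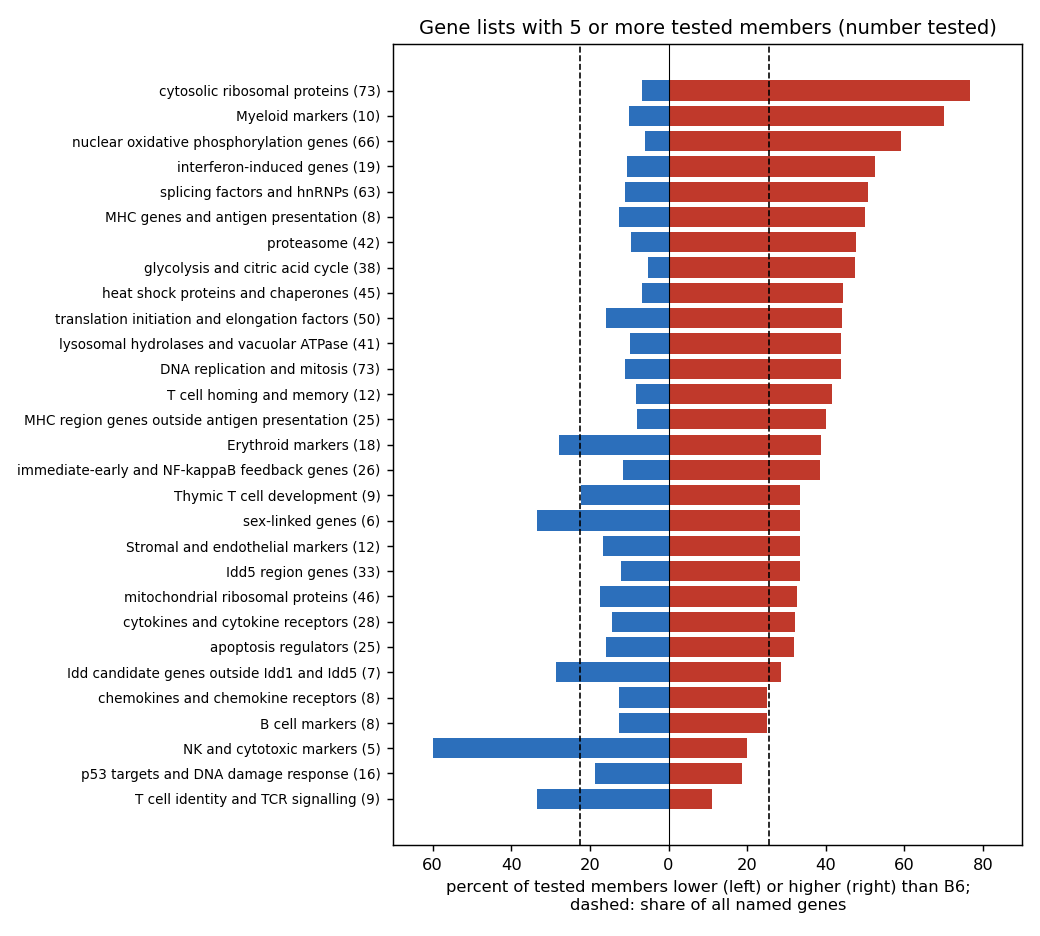
Percent of the tested members of each list that were higher (right, red) or lower (left, blue) than B6 at an adjusted p under 0.05, with the number tested in brackets. Dashed lines mark the shares of all named genes, 25.5% higher and 22.6% lower. Ribosomal proteins (76.7%) and myeloid markers have the largest shares of higher genes among the lists, and as deposited the ribosomal list has 7 higher and 23 lower genes.

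The low end of the experiment was less secure than the high end. Deposited ratios with a log2 below -2 came in steps of 0.001 on both B6toNOD arrays. The lowest were 0.005 on array 1 and 0.008 on array 2, so the most negative values are coarse. Among the 12 lowest named genes, Pcsk5, a protease that cleaves precursor proteins, read -4.30 and -5.42 (mean -4.86 ± 0.25, adjusted p = 9.3e-06). Jag1, a ligand of Notch receptors, read -3.62 and -3.69 (mean -3.66 ± 0.08, adjusted p = 6.2e-07). Slc46a1, a folate transporter, read -4.30 and -2.85, and 1500009C09Rik read -3.85 and -3.31. For these the arrays agreed in being far below B6.

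In other low genes 1 array carried the value. Phf1, a Polycomb-associated protein, read -1.36 and -6.12, Rbm33, an RNA-binding protein, -7.02 and -0.43, and Kctd20 -6.18 and -1.68. E330016L19Rik read -6.34 and -1.18, Zp3, a protein of the egg coat, -5.54 and -1.74, and Dhrs3, a retinal reductase, -1.90 and -5.31. Trim46 (-6.18 and -2.74) and Frmd4b (-3.06 and -4.87) lay between. Their tests passed with the shared spread (adjusted p from 0.0001 to 0.041), although in all of these except Frmd4b the gap between the arrays was larger than the smaller of the 2 values. Without array 1, Rbm33 did not pass (adjusted p = 0.55).

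Low genes with several probes gave smaller values. Of 511 lower genes with 2 or more probes, 356 had every probe below 0, and the genes named next were chosen among these. Hsf5, of the heat shock factor family, read -3.05 and -2.90 (mean -2.97 ± 0.23), but this rests on probes that differed between the arrays in opposite directions, with -2.38 and -3.73 for one and -3.73 and -2.06 for the other. Paxip1, a DNA damage response protein, read -2.20 and -2.33, but its probes lay at -3.83 and -0.71. Igf2, the fetal growth factor, read -3.15 and -1.48, with probes at -3.35 and -0.58 and at -1.67 and -2.38, and Pdgfa, a growth factor for mesenchymal cells, read -1.10 and -3.27. Probes or arrays of the same gene thus lay apart in some of them.

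The reciprocal transfer was the most similar group in design. B6toNOD minus NODtoB6 was tested for 7462 named genes, of which 1497 were higher in B6toNOD (20.1%) and 956 lower (12.8%), or 32.9% in either direction. As deposited the balance turned, with 443 named genes higher and 2035 lower. Over all features the shares were 21.6% higher and 14.4% lower, 36% together. Both groups share B6 RNA as control. With only the 4 marrow transfer arrays in the fit no feature passed in limma, and 4177 of 13676 had an unadjusted p under 0.05, so these calls rest on the spread of the other arrays.

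S100a9, Lcn2 and Lyz2 were above B6 in both transfers and, as centred, higher in B6toNOD. S100a9 read 3.09 and 2.99 in NODtoB6, 3.61 ± 0.17 below B6toNOD (adjusted p = 5.2e-05). Lcn2 read 3.04 and 2.84, and the difference was 2.75 ± 0.35 (adjusted p = 0.00092). Lyz2 read 2.64 and 2.48, and the difference was 0.98 ± 0.13 (adjusted p = 0.001). In each gene the arrays of the groups did not overlap. These genes were among the highest of B6toNOD, so this is no separate support. Of the 10 tested myeloid genes 5 were higher in B6toNOD and none lower, against 20.1% and 12.8% of all named genes. The list median in NODtoB6 was 0.84. Ltf differed by 1.66 ± 0.10, Alox5ap by 1.35 ± 0.10 and Anxa1 by 1.97 ± 0.25. Because the B6toNOD arrays had the widest spread, these differences depended on the scale. With all arrays scaled to the same spread, S100a9 differed by 0.81 (adjusted p = 0.085) and Lcn2 by 0.31 (adjusted p = 0.59) and neither passed, while Lyz2 (-0.61), Alox5ap (-0.22) and Anxa1 (-0.10) turned sign. Ltf still passed, at 0.66 (adjusted p = 0.021).

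Not every leading gene was shared with the reciprocal transfer. Smarcd2 read 0.16 and 0.23 in NODtoB6, 4.41 ± 0.21 below B6toNOD, and Hmgn2 read 0.78 and 0.96, a difference of 3.20 ± 0.11. Serpinb1a read 0.20 on average there. These differences passed with the arrays scaled as well, at 2.66 for Smarcd2, 1.59 for Hmgn2 and 1.5 for Serpinb1a. Fezf2 was below B6 in NODtoB6 (-1.46 and -2.77), so its difference of 5.42 ± 0.46 was the largest positive one among named genes. Other large positive differences came from genes that were near B6 in B6toNOD and very low in NODtoB6. Chchd4, of the mitochondrial import machinery, read 0.65 and 0.21 against -5.50 and -3.13, and Snx6, a sorting nexin, 0.35 and 0.10 against -3.04 and -6.35. Agpat1 of the MHC region read -2.44 on average in NODtoB6, a difference of 3.92 (adjusted p = 1.4e-05).

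T cell homing genes differed in both directions between the transfers. Of 12 tested, 6 were higher in B6toNOD and 4 lower, against 20.1% and 12.8% of all named genes. Cxcr4 was at -0.22 in NODtoB6 and differed by 1.34 (adjusted p = 0.0012), and Il7r was at -0.05 and differed by 1.65 (adjusted p = 0.018). The integrin chain genes Itgb2, at 1.21 in NODtoB6 and -0.62 in B6toNOD (adjusted p = 0.011), and Itgb7, at 0.85 and 0.06 (adjusted p = 0.0041), differed the other way. Among T cell identity genes 3 of 9 were lower in B6toNOD, against 12.8% of all named genes, and none was higher. These were Gata3 by -1.11 (adjusted p = 0.013), Ets1 by -1.07 and Cd28 by -0.44 (both adjusted p = 0.045). None of the 3 passed with the arrays scaled to the same spread (adjusted p from 0.079 to 0.14).

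Of 16 erythroid genes tested in this difference, 9 were lower in B6toNOD and none higher, against 12.8% and 20.1% of all named genes. Hbb-b1 read 2.57 and 3.09 in NODtoB6 and differed by -1.12 (adjusted p = 0.0025), and Hbb-bh1 was at 3.10 there and differed by -2.61. Jchain, at 3.01 in NODtoB6, differed by -1.98 (adjusted p = 0.0015), and Ighm, at 1.12, by -1.37 (adjusted p = 0.0099). Ribosomal protein genes were higher in B6toNOD in 53 of 73 cases and lower in 3, against 20.1% and 12.8% of all named genes. Their median in NODtoB6 was -0.004 centred, and their median difference was 0.60. Over all features the median difference was -0.001 centred and -0.51 as deposited, so these counts depend on the centring. As deposited the list was not counted for this difference.

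B6toNOD minus NOD was tested for 7679 named genes, of which 1439 were higher (18.7%) and 1061 lower (13.8%), or 32.6% in either direction. As deposited the balance turned, with 361 named genes higher and 2567 lower. Over all features the shares were 19.2% higher and 16.8% lower, 36% together, and with the arrays scaled to the same spread lower features outnumbered higher ones (2317 and 1735). This comparison sets spleen T cells of NOD recipients of B6 marrow, which may include cells of the host, beside those of NOD mice. Neutrophil genes again had large differences as centred. S100a9 read 2.13 and 2.20 in NOD, 4.49 ± 0.17 below B6toNOD (adjusted p = 1.7e-05), and Lcn2 read 1.03 and 1.17, 4.6 ± 0.35 below (adjusted p = 0.00013). Of the 10 myeloid genes 6 were higher in B6toNOD and 1 lower, against 18.7% and 13.8% of all named genes. The list median in NOD was 0.55. With all arrays scaled to the same spread the S100a9 difference was 0.37 and did not pass (adjusted p = 0.4), and that of Lcn2 was 1.64 (adjusted p = 0.015).

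Ifitm3 was near B6 in NOD (0.22 and -0.06), 4.04 ± 0.14 below B6toNOD. Ly6e was below B6 in NOD on average (-1.87) and differed by 3.40 (adjusted p = 3.5e-05), and B2m was at -0.38 and differed by 2.17 (adjusted p = 0.00035). Fos was at -0.91 and differed by 2.03. Wnt2, a secreted growth signal, read 1.59 and 1.52 in B6toNOD and -3.98 and -2.09 in NOD. Hspa8 was at -0.80 in NOD and differed by 2.76. In these genes the 2 arrays of either group lay apart from those of the other. This follows from naming genes with large differences and is no separate support.

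Some genes that were high in NOD T cells were less so in B6toNOD. Cd200, a surface ligand that restrains myeloid cells, read 1.55 on both arrays of B6toNOD, with a mean of 3.65 in NOD and a difference of -2.10. Nr2f2, an orphan nuclear receptor, read 1.98 and 1.90, with a mean of 3.52 in NOD and a difference of -1.58. In NODtoB6 these genes had means of 2.39 and 2.54, between the other 2 groups. Hbb-b1 differed from NOD by -1.60 (adjusted p = 0.00052). All 3 remained above B6 in B6toNOD. Among T cell genes Fyn differed by -1.35 (adjusted p = 0.0025), Ets1 by -1.45 (adjusted p = 0.014) and Gata3 by -0.92 (adjusted p = 0.029), each lower in B6toNOD than in NOD. Scaled to the same spread, Gata3 differed by -0.28 and did not pass (adjusted p = 0.41).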

How the data were processed

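The authors deposited 1 log2 ratio per probe and array (experimental over B6 control RNA), per the labels and the values, for 20736 probes. The image analysis and normalization before deposit were not given in the sources used here. Without spot intensities, which were not analysed here, the signal over background is not known. Probes were named through the platform annotation: 13033 had 1 gene symbol, 312 several and 7391 none, and 12850 were updated through the gene identifier. Each array was centred on its median and probes of a gene were averaged, which gave 16411 features and 8708 named genes. The fit was limma 3.58.1 in R 4.3.3 over all 12 arrays and 6 groups, with Benjamini-Hochberg adjustment and a threshold of 0.05, and it was tested on simulated data first. A ratio against B6 leaves out the control's own spread. Only the strain arrays have labelled dyes, and the same direction was taken for the marrow transfer arrays. Named genes were the 12 highest and 12 lowest called genes, the 10 highest and 10 lowest called genes with 2 or more probes on the same side, up to 3 called members at either end of each list, the 6 highest and 6 lowest called differences in each comparison between groups, and a fixed set. The list members Hba-x, Hbb-bh1, Hbb-y, Itgb2, Itgb7, Klf2, Ldha, Pgam1, Slc2a3, Tnfsf8 and Tpi1 lie outside this rule and were named after their values had been seen. Members and lists were chosen with earlier results of these data known. Alternatives covered centring, scaling, quantile normalization, summaries over probes, the arrays in the fit, direction and each array left out.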

Additional observations from a re-analysis of the deposited data

Results flagged for a closer look

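The genes with the 6 highest and 6 lowest differences that passed limma's test (adjusted p under 0.05) are given for each comparison between groups, on the centred log2 scale. B6toNOD was above NODtoB6 in Fezf2 (5.42), 4930467E23Rik (5.33), Oc90 (4.92), Snx6 (4.92), Chchd4 (4.75) and Uqcrh (4.63). It was below NODtoB6 in Ints8 (-5.46), Kctd20 (-5.37), Pcsk5 (-4.91), Col8a2 (-4.49), Poldip3 (-4.44) and Dhrs3 (-4.35). B6toNOD was above NOD in Sprr2a1 (4.63), Lcn2 (4.6), Wnt2 (4.59), S100a9 (4.49), Smarcd2 (4.31) and Ifitm3 (4.04). It was below NOD in Pcsk5 (-4.82), Dhrs3 (-4.39), Msantd1 (-4.09), Frmd4b (-4.0), BB001228 (-3.98) and Trim46 (-3.93). With the arrays scaled to the same spread, the differences of Poldip3 from NODtoB6 and of S100a9, Sprr2a1 and Trim46 from NOD did not pass. No group has 4 arrays, so no array was tested for standing apart from its group.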

How the results depend on the processing

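Against B6, 7350 features passed, and with the arrays scaled to the same spread 4424, with quantile normalization 4694, with only the 4 marrow transfer arrays 3475 and with only the 2 B6toNOD arrays 0 (4883 at an unadjusted p under 0.05). B6toNOD minus NODtoB6 went from 4923 features to 3099 when scaled, 3000 after quantile normalization and 0 with only the 4 marrow transfer arrays (4177 at an unadjusted p under 0.05). The fit over those 4 arrays gives no difference from NOD, and the fit over 2 arrays gives only the comparison against B6. Leaving out each array in turn gave 6822 to 7668 features against B6, 3897 to 5732 for B6toNOD minus NODtoB6 and 3419 to 5848 for B6toNOD minus NOD. Among named genes, the call against B6 was lost without array 1 of B6toNOD in Blvrb, Cish, Col1a2, Fyn, Hmgb2, Hmgn1, Il6st, Lcp2, Pfkm, Psmb1, Rbm33 and Sprr2a1, and without array 2 in Bag3, C1qb, Cd79b, Col1a2, Dut, Eif2s3x, Entpd1, Fyn, Hmgb2, Hmgn1, Ifitm1, Ikzf1, Lcp2, Ppbp, Psmb1, Sprr2a1 and Urod. That of B6toNOD minus NODtoB6 was lost without array 1 in Cd28, Gata3, Poldip3 and Uqcrh and without array 2 in Cd28, Ets1, Poldip3 and Uqcrh, and that of B6toNOD minus NOD without array 1 in Gata3 and Sprr2a1 and without array 2 in Sprr2a1. Averaging only probes with a value on both B6toNOD arrays, an alternative chosen after seeing the data, gave 7569, 5196 and 5335.

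As deposited, these means against B6 were below 0: Ada -0.049, C1qb -0.33, Cd28 -0.57, Cd44 -0.015, Fcer1g -0.33, H2-Eb1 -0.020, Hbb-bh1 -0.25, Hbb-y -0.056, Klf2 -0.12, Nfkbia -0.56 and Xist -0.56. After subtraction of a running median along the probe order Xist was -0.087, and with the median over probes Itgb1 was -0.05. Oas1a was exactly 0 after the running median. A probe that equals the running median at its place is set to 0, so this setting does not measure the height of Oas1a. Icos was -0.30 without array 1 and 2.87 without array 2, and Fcer1g was 0.92 and -0.11. Scaled to the same spread, the difference from NODtoB6 was Alox5ap -0.22, Anxa1 -0.099 and Lyz2 -0.61. The cause was not tested.

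Since the dyes are not labelled, signs were also turned. With the NODtoB6 arrays turned, B6toNOD minus NODtoB6 passed for 7068 features (3700 higher and 3368 lower) and became 4930467E23Rik -4.19, Agpat1 -0.96, Cd28 0.77, Chchd4 -3.88, Hbb-b1 4.54, Hbb-bh1 3.58, Ighm 0.86, Ints8 2.67, Itgb2 0.59, Itgb7 0.92, Jchain 4.04, Oc90 -2.6, Snx6 -4.47 and Uqcrh -2.48. With the B6toNOD arrays turned, B6toNOD minus NOD passed for 5645 features (2127 higher and 3518 lower) and became B2m -1.42, BB001228 3.13, Dhrs3 2.83, Ets1 0.82, Fos -0.22, Frmd4b 3.93, Gata3 1.47, Hspa8 -1.16, Ifitm3 -4.21, Lcn2 -6.8, Msantd1 3.0, Pcsk5 4.89, S100a9 -8.81, Smarcd2 -4.91, Sprr2a1 -2.59 and Trim46 4.99. The direction of all values against B6 turns with the B6toNOD arrays.

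With the replicate number as a block, 7202 features passed against B6, 4721 for B6toNOD minus NODtoB6 and 4885 for B6toNOD minus NOD. Deviations of B6toNOD arrays and of arrays of the other groups with the same number correlated at -0.021 to 0.015. No common pattern by replicate number was thus seen with B6toNOD. Whether arrays with the same number share animals, control RNA or a batch was not tested.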
